A study of Homo sapiens with 12 samples.

Results

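Tight junction genes were measured in monolayers of A549, an established human lung adenocarcinoma cell line that serves as a model of alveolar epithelium. The set holds 9 genes taken by platform gene symbol: the claudin genes CLDN1, CLDN2, CLDN3, CLDN4 and CLDN7, the occludin gene OCLN, the scaffold gene TJP1, the junctional adhesion molecule gene F11R and the cingulin gene CGN. Of these 9, 8 had at least 1 probe set with a single symbol, among 18132 genes in all, and F11R was not analysed here. The 8 genes were read by 18 probe sets, and the probe set whose 12 arrays gave the highest mean supplied the main value of a gene. Cells were grown on uncoated plastic and fell into 4 groups of 3 Affymetrix PrimeView arrays: control, heat shocked (2 h), wounded (4 h), and heat shocked and then wounded. The temperature of the heat shock, the time at which heat shocked monolayers without a wound were collected and the origin of the 3 arrays of a group in separate cultures are not given in the labels. The p-values therefore measure only the spread between these samples, which may be technical.

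Tight junctions close the gap between neighbouring epithelial cells near their apical side. Claudins and occludin cross the membrane and meet their counterparts on the next cell, and the claudins present set which ions and solutes pass. CLDN1, CLDN3, CLDN4 and CLDN7 are counted among the sealing claudins, while CLDN2 forms a channel for cations and water. On the cytoplasmic side TJP1 (the protein ZO-1) binds the tails of claudins and links them to actin, and cingulin binds ZO-1 and myosin. In alveolar epithelium CLDN4 is known as a claudin that rises after lung injury.

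Labels were checked first. HSPA6, which encodes a chaperone made under stress, was 5.79 ± 0.26 higher on the log2 scale (SE, n = 3) after heat shock (limma adjusted p = 6.03e-08), and EGR1, an immediate early gene, was 2.99 ± 0.27 higher after wounding (limma adjusted p = 8.19e-05). The 6 epithelial markers, which included KRT8, KRT18 and EPCAM, had group means from 9.13 to 13.83. Of 9 markers of alveolar type II cells, 4 stayed in every group under 4.60: SFTPA1, SFTPD, LAMP3 and SLC34A2. SFTPB, SFTPC, ABCA3, NAPSA and NKX2-1 lay above 4.60 in every group. The value 4.60 is the upper quartile of 17 endothelial and leukocyte markers in control. That level serves as a rough guide to dim signals, since no detection p was at hand. The array of heat shocked and wounded replicate 2 stood apart, with an interquartile range of 4.31 against 4.46 to 4.58 on the other 11 arrays. The mean of its 6 endothelial markers was also the highest, 4.59 against 4.16 to 4.31 elsewhere, and its part in the results below was not tested beyond leaving that array out.

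Promoter sequences are given for 4 members, the 3 with a called difference on the main probe set (CLDN1, CLDN2 and CLDN4) and OCLN, which had none. They are RefSeq sequences of build GRCh38.p14, 250 bases before an annotated start, printed 5′ to 3′ on the gene's strand. The windows lie at chr7:73830746-73830995 (plus strand) for CLDN4, chr3:190322447-190322696 (minus) for CLDN1, chrX:106899914-106900163 (plus) for the upstream start of CLDN2 and chr5:69492297-69492546 (plus) for the upstream start of OCLN. Capitals mark matches on either strand to a set of patterns in which N stands for any base. These were the loose AP-1 pattern TGANTCA, the E-box CAGGTG bound by Snail-type repressors and the core of a heat shock element GAANNTTC. The others were the GC box GGGCGG and the Grainyhead-like site AACNGGTT.
CLDN4: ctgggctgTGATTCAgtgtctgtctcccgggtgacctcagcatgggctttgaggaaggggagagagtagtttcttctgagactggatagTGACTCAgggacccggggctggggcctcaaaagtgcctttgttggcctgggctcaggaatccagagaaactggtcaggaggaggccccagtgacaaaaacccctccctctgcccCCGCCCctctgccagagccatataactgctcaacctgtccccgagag
CLDN1: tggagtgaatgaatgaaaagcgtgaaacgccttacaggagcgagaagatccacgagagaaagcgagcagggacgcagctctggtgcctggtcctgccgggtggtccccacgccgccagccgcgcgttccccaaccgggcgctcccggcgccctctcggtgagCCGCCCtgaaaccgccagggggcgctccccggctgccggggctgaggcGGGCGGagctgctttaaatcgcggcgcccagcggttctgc
CLDN2: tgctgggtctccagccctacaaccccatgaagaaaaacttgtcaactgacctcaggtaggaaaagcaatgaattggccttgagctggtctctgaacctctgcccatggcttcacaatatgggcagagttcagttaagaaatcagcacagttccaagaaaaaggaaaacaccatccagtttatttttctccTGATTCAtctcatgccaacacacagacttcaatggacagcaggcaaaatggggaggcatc
OCLN: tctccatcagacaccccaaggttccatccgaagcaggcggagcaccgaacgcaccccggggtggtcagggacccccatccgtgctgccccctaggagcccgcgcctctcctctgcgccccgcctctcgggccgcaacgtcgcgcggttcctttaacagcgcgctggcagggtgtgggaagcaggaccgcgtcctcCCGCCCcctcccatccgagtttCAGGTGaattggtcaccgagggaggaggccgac

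The CLDN4 window held 2 AP-1 matches, TGATTCA from 242 to 236 bases and TGACTCA from 161 to 155 bases before the start. Of 35116 windows of that length, 6.57% held at least 1 AP-1 match and 0.402% held 2 or more. The pattern takes any base in its middle, so these shares hold for TGANTCA and not for a stricter AP-1 site. Shares for a stricter site were not computed. The upstream start of CLDN2 held 1 AP-1 match, TGATTCA, and no AP-1 match was found in the windows of the other members. CLDN1 held 2 GC boxes and no E-box match, and OCLN held 1 GC box and 1 E-box match, against 42.6% and 17.5% of all windows with at least 1 such match. The first listed start of CLDN7 held 4 E-box matches. None of the 14 windows of the 8 members held the heat shock element core, which 5.78% of all windows held, and the Grainyhead-like site stood in CGN alone (1.49% of all windows). A match is a description of letters and not of binding, and heat shock elements can lie outside such windows.

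CLDN4, a sealing claudin, rose most after the combined treatment, and its probe sets differed widely in how much. All 3 ranked the groups in the same order: control lowest, then heat shocked, then wounded, then both. The main probe set (11744371_s_at) read 5.72, 5.28 and 6.12 in control, 6.13, 5.95 and 6.25 after heat shock, 6.53, 6.59 and 6.32 after wounding, and 7.07, 7.77 and 6.88 after both. The 3 arrays with both treatments were the highest of the 12, while heat shocked and control arrays overlapped. The second probe set (11716780_s_at) read 4.57, 4.80 and 4.65 in control, 5.70, 5.67 and 5.58 after heat shock, 6.87, 6.53 and 6.18 after wounding, and 7.91, 8.96 and 8.18 after both. The third (11758355_s_at) read 3.83, 4.26 and 3.95, then 5.21, 5.40 and 5.09, then 6.86, 6.46 and 6.05, then 8.04, 8.47 and 8.37. On the second and the third probe set no group overlapped with any other, so the 4 groups stood as 4 separate steps. RNA was taken from whole monolayers, so fewer cells of a kind and less RNA per cell cannot be told apart for CLDN4 or any gene below.

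**Figure D1:**
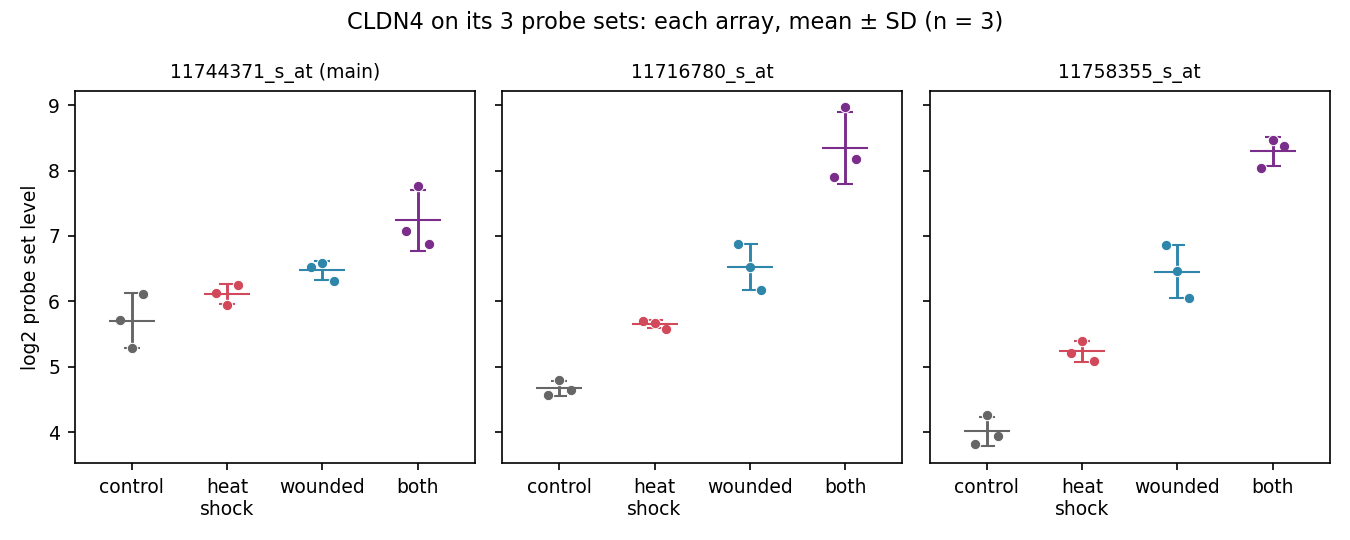
Log2 level of CLDN4 (vertical axis, shared) on its 3 probe sets in the 4 groups (horizontal axis). Points are arrays and bars are the mean ± SD of 3; all 3 panels climb from control to both treatments, from 5.70 to 7.24 on the main probe set and from 4.01 to 8.29 on the third.

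With the main probe set, CLDN4 was 1.54 ± 0.22 higher on the log2 scale after both treatments than in control (SE, n = 3; 2.90-fold; limma adjusted p = 0.000329). The second and the third gave 3.68 ± 0.22 (12.8-fold; limma adjusted p = 2.56e-07) and 4.28 ± 0.18 (19.4-fold; limma adjusted p = 1.82e-08), tested among all 44987 probe sets with 1 symbol. Those folds are approximate, because the control means of the third probe set (4.01 ± 0.23, SD) and the second (4.67 ± 0.12) lay under or close to the guide level of 4.60. Leaving out heat shocked and wounded replicate 2 gave 2.42-fold, 10.4-fold and 18.3-fold. Over the 12 arrays the second and the third probe set correlated at r = 0.989 with each other and at 0.929 and 0.892 with the main one, and the 3 share every array. The names of all 3 end in s_at, the maker's mark for probes that match more than 1 transcript, so a share of signal from a related gene cannot be told apart.

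CLDN4 rose after each single treatment on the second and the third probe set, while the main probe set did not pass. After wounding the differences were 0.77 ± 0.22 on the main probe set (limma adjusted p = 0.0986), 1.85 ± 0.22 on the second (limma adjusted p = 0.000472) and 2.44 ± 0.18 on the third (limma adjusted p = 2.6e-05). After heat shock they were 0.41 ± 0.22 (limma adjusted p = 0.297), 0.98 ± 0.22 (limma adjusted p = 0.0146) and 1.22 ± 0.18 (limma adjusted p = 0.001). The main probe set passed after wounding without control replicate 3 (limma adjusted p = 0.0475) and without heat shocked and wounded replicate 2 (0.0253). The call after heat shock on the second probe set was lost without control replicate 1 (limma adjusted p = 0.0581) or heat shocked replicate 1 (0.0533), and the third probe set passed under all 17 alternatives.

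CLDN4 was higher in heat shocked and wounded monolayers than in those with either treatment alone. Against wounded monolayers the combined group was higher by 0.76 ± 0.22 on the main probe set (limma adjusted p = 0.039), by 1.83 ± 0.22 on the second (3.55-fold; limma adjusted p = 0.000231) and by 1.84 ± 0.18 on the third (3.57-fold; limma adjusted p = 5.66e-05). The main probe set's call was fragile: it was kept in 12 of 22 alternatives, and 0.50 (limma adjusted p = 0.129) was left without heat shocked and wounded replicate 2. It was also lost without control replicate 1 (limma adjusted p = 0.0534), heat shocked replicate 1 (0.0531), wounded replicates 1, 2 or 3 (0.0871, 0.0701 and 0.124) or heat shocked and wounded replicate 1 (0.0534), in a fit to those 2 groups alone (0.07), and with a block on the number in the description label (0.0505). The block on the replicate number ended it too (limma adjusted p = 0.0666). The second and the third probe set passed there under all 17 alternatives. Against heat shocked monolayers the differences were 1.13 ± 0.22 (limma adjusted p = 0.0125), 2.70 ± 0.22 (6.51-fold; limma adjusted p = 6.32e-05) and 3.06 ± 0.18 (8.32-fold; limma adjusted p = 1.16e-05), and the first of these missed the threshold without heat shocked replicate 2 (limma adjusted p = 0.0578).

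Monolayers with a single treatment were next to each other in the order of CLDN4 levels. The second and the third probe set were lower after heat shock than after wounding, with differences of -0.88 ± 0.22 and -1.22 ± 0.18 (limma adjusted p = 0.0284 and 0.00114), and the main probe set differed by -0.37 ± 0.22 (limma adjusted p = 0.393). The call on the second was lost without any 1 heat shocked array (limma adjusted p = 0.0739, 0.0733 and 0.0838) and without wounded replicate 1 or 2 (0.125 and 0.0817). The interaction asks whether the combined effect departs from the sum of the log2 effects. It was 0.36 ± 0.32 on the main probe set (limma adjusted p = 0.857), 0.85 ± 0.31 on the second (limma adjusted p = 0.65) and 0.61 ± 0.26 on the third (limma adjusted p = 0.674). All 3 values lay above 0. Their unadjusted 95% intervals were -0.333 to 1.046 on the main probe set, 0.171 to 1.525 on the second and 0.054 to 1.17 on the third. None passed after adjustment over all genes or probe sets, so no departure from the sum was called.

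The genes whose main probe sets tracked that of CLDN4 most closely over the 12 arrays, among 9065 others above the median level, were RIPK4 (r = 0.944), ZNF469 (0.943) and SEMA7A (0.941). RIPK4 encodes a kinase of epithelial differentiation and had group means of 7.22 in control, 7.38 after heat shock, 7.71 after wounding and 8.36 with both treatments. SEMA7A, a membrane-anchored semaphorin gene, read 6.28, 6.89, 7.28 and 8.10. Both followed the same order of groups as CLDN4, but they were picked for their correlation with it on these same arrays. FOS, which encodes 1 subunit of AP-1, had means of 6.20, 6.28, 8.25 and 7.74 in the same groups. A role of AP-1 in the level of CLDN4 was not tested.

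CLDN1, also a sealing claudin, rose after heat shock and fell with both treatments, where it sat at the wounded level. The main probe set read 10.55, 10.48 and 10.59 in control, 10.83, 10.99 and 10.68 after heat shock, 10.23, 10.27 and 10.28 after wounding, and 10.29, 10.22 and 10.17 after both. Heat shocked arrays were all above control and the 6 arrays with a wound were all below it. All 4 probe sets of CLDN1 placed heat shocked monolayers highest and control second. Pairs of them correlated at 0.774 to 0.936 over the 12 arrays, which they share.

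**Figure D2:**
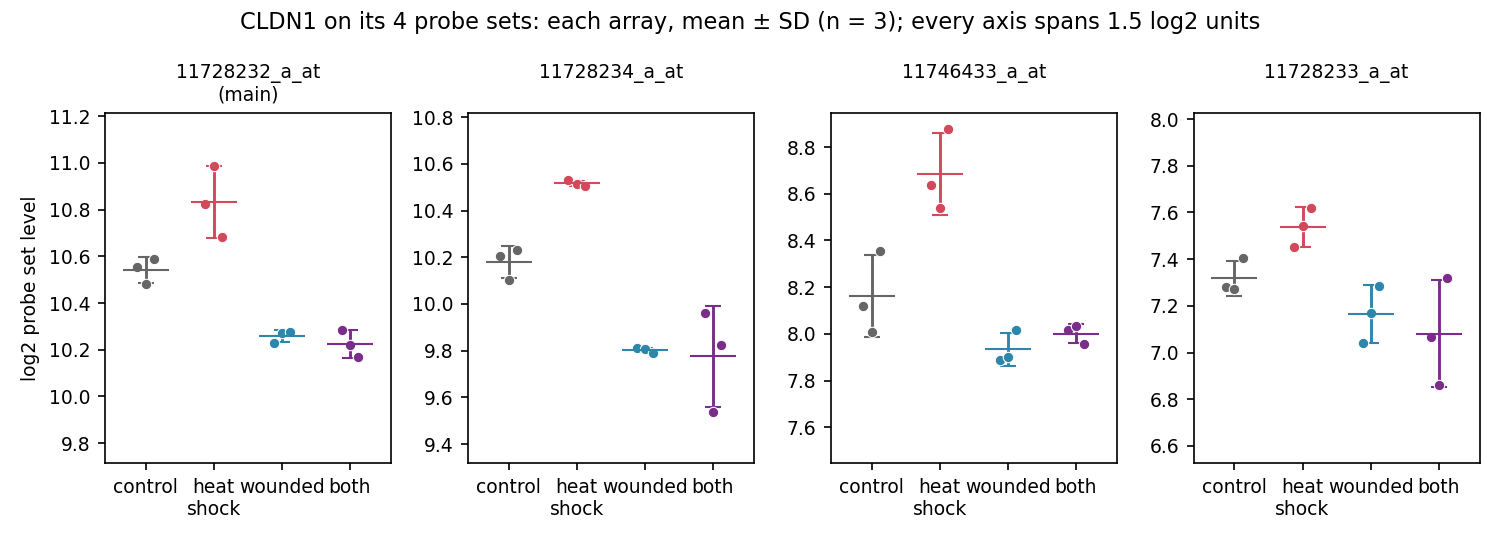
Log2 level of CLDN1 on its 4 probe sets in the 4 groups; each vertical axis spans 1.5 log2 units. Points are arrays and bars are the mean ± SD of 3; heat shocked arrays stand highest in every panel, and the wounded group and the group with both treatments lie together below control.

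CLDN1 rose 1.22-fold after heat shock, a log2 difference of 0.29 ± 0.08 (SE, n = 3; limma adjusted p = 0.0269). It was the 1 member of 8 called there, while 12.9% of all genes were (4.93% higher and 7.92% lower, that is 894 and 1436 genes, or 1092 and 1110 with cyclic loess scaling). The other probe sets gave 0.34, 0.52 and 0.22, of which the first 2 also passed, and 8.98% of all probe sets did. The call on the main probe set did not hold without control replicate 1 (limma adjusted p = 0.0736), control replicate 2 (0.101), heat shocked replicate 1 (0.0756) or heat shocked replicate 2 (0.0994), nor in a fit to those 2 groups alone (0.0704). The probe set 11746433_a_at (8.16 ± 0.18 in control and 8.69 ± 0.17 after heat shock, SD) passed under all 17 alternatives, with a highest limma adjusted p of 0.0325. It was the only stable one. In the same fits over all probe sets the main probe set passed in 7 of 17 alternatives, 11728234_a_at in 8 and 11728233_a_at in 0.

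After wounding the main probe set of CLDN1 was 0.28 ± 0.08 lower (difference -0.28), which did not pass (limma adjusted p = 0.0767), although the values of the groups did not overlap. Such separation from control was common, since 21.9% of all genes showed it. The difference passed without heat shocked replicate 2 or 3 (limma adjusted p = 0.0417 and 0.035), arrays that enter only through the estimate of spread. No member passed after wounding on its main probe set, where 3.57% of all genes were called (2.27% higher and 1.31% lower), and the median difference over the 8 members was 0.01 against -0.03 over all genes. Through their other probe sets 1 of the 8 members, CLDN4, passed on 2 of the 18 probe sets, against 2.33% of all probe sets.

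With both treatments CLDN1 fell by 0.32 ± 0.08 against control (1.25-fold; limma adjusted p = 0.00995), and 2 of its 4 probe sets passed in the fit over all probe sets, where 18.2% did. It was one of 3 members of 8 called there, with CLDN2 lower and CLDN4 higher, where 23.1% of all genes passed (8.66% higher and 14.4% lower, that is 1571 and 2609, or 1935 and 1928 with cyclic loess scaling). Against heat shock alone CLDN1 was lower by 0.61 ± 0.08 (1.52-fold; limma adjusted p = 0.000651), and all 4 probe sets passed, by 0.46 to 0.74. CLDN1 and CLDN4 were the 2 of 8 called in that comparison, against 4.3% of all genes (2.71% higher and 1.58% lower) and 2.87% of all probe sets. Heat shocked monolayers also exceeded wounded ones by 0.57 ± 0.08 (1.49-fold; limma adjusted p = 0.000505), in the comparison where CLDN1 was the 1 of 8 called and 10.5% of all genes were (4.51% higher and 6.01% lower). Against wounding alone, however, the combined group differed by -0.03 ± 0.08 (95% interval -0.20 to 0.13; limma adjusted p = 0.818). Heat shock before a wound thus came with no detectable difference in CLDN1. The rise of 0.29 without a wound had a 95% interval of 0.12 to 0.46. The interaction compares these 2 effects directly and was -0.32 ± 0.11, with an unadjusted 95% interval of -0.56 to -0.09. It did not pass after adjustment over all genes (limma adjusted p = 0.608). No member passed that test, which 0.00552% of all genes and 0.00222% of all probe sets did.

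SHROOM3, a regulator of apical actomyosin, followed CLDN1 most closely over the 12 arrays (r = 0.96), then STK3, a kinase of the Hippo pathway (0.941), and MSRB3 (0.939). SHROOM3 had group means of 8.41 in control, 8.64 after heat shock, 8.11 after wounding and 8.14 with both treatments. These are descriptions chosen from 9065 genes on the same arrays.

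CLDN2, the cation channel claudin, fell with both treatments and did not pass after either alone. It read 9.66, 9.89 and 9.64 in control, 9.44, 9.37 and 9.89 after heat shock, 9.77, 9.61 and 9.68 after wounding, and 9.42, 9.11 and 9.28 after both. The arrays with both treatments lay below all control and wounded arrays and overlapped with those heat shocked, of which replicate 3 was as high as control. Against control it fell by 0.46 ± 0.13, or 1.38-fold (SE, n = 3; limma adjusted p = 0.0204), and the second probe set gave -0.38 (limma adjusted p = 0.0382). Without control replicate 2 or heat shocked and wounded replicate 2 the main probe set did not pass (limma adjusted p = 0.0896 and 0.0776). Against wounding alone the difference of -0.42 ± 0.13 stood at a limma adjusted p of 0.0477, and CLDN2 and CLDN4 were the 2 of 8 members called there, with 14.9% of all genes (6.31% higher and 8.6% lower, that is 1144 and 1560, or 1320 and 1168 with cyclic loess scaling). That CLDN2 call held in 8 of 22 alternatives, where the adjusted p ran from 0.012 to 0.157, and it was lost without any 1 control or wounded array, heat shocked replicate 1, or heat shocked and wounded replicate 2 or 3. It was also lost after quantile normalization again (limma adjusted p = 0.0581), cyclic loess (0.082), with all probe sets tested (0.056) and with a block on the description number (0.0511) or the replicate number (0.0636). Heat shock alone gave -0.16 ± 0.13 (limma adjusted p = 0.5) and wounding alone -0.05 ± 0.13 (limma adjusted p = 0.931). Whether the single and combined responses differ was tested by the interaction, -0.25 ± 0.18, which did not pass (limma adjusted p = 0.815).

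**Figure D3:**
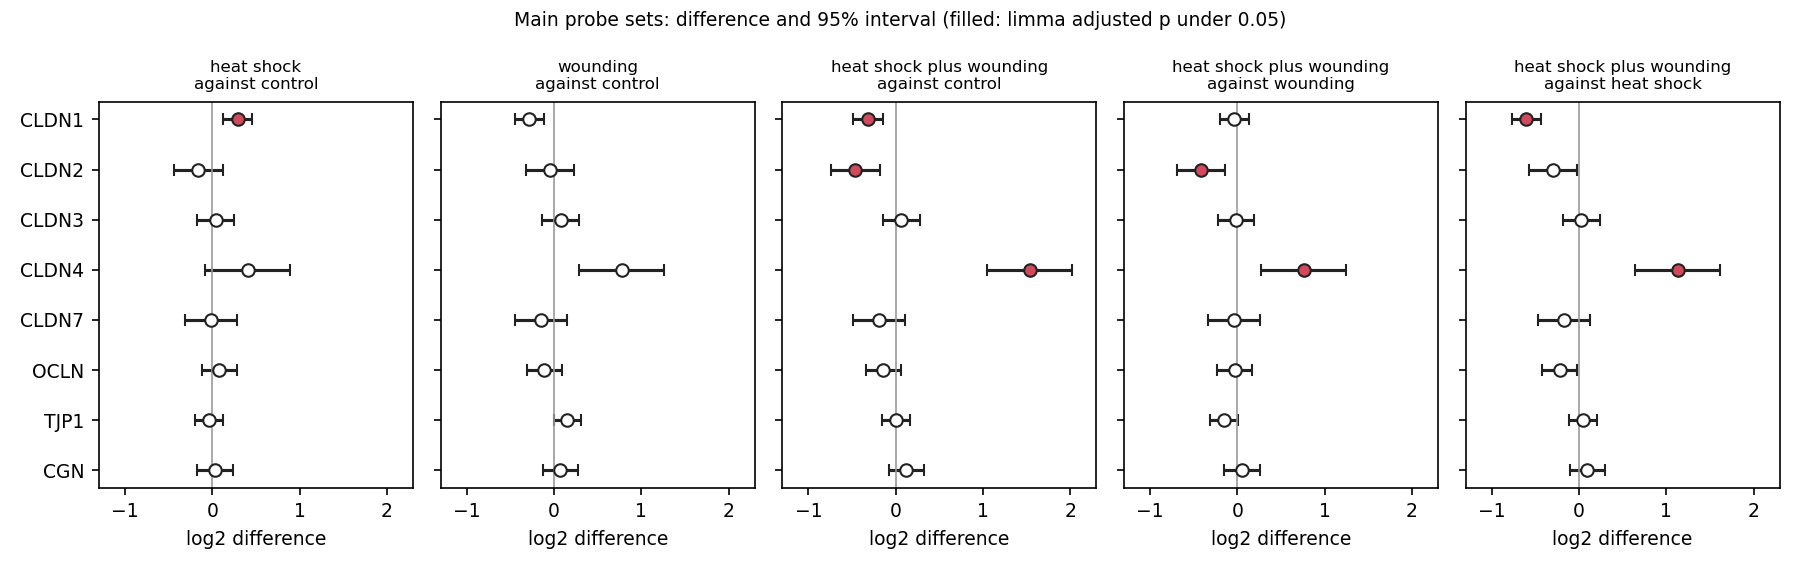
Log2 difference (horizontal axis) of each member's main probe set in 5 comparisons, with 95% intervals from limma. Filled points passed at an adjusted p under 0.05; CLDN4 at 1.54 lies farthest to the right after both treatments, and CLDN1 changes side between heat shock (0.29) and wounding (-0.28).

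OCLN encodes occludin, a membrane protein of the junction strand, and none of its differences passed. The main probe set read 6.11, 5.92 and 6.14 in control, 6.07, 6.23 and 6.12 after heat shock, 5.89, 5.99 and 5.97 after wounding, and 6.06, 5.72 and 5.97 after both. The heat shocked arrays lay above all arrays with a wound, without a call in either comparison. Both probe sets gave the largest difference between the group with both treatments and heat shock alone, -0.22 ± 0.09 (limma adjusted p = 0.236) and -0.52 (limma adjusted p = 0.0557). The order of the group means, heat shocked, control, wounded and both, was that of the main probe set of CLDN1. OCLN has a near-identical pseudogene copy on the array annotation, and 1 further probe set that listed both was left out. Both OCLN probe sets kept here also end in s_at, so signal from another transcript cannot be told apart. The same limit holds for the main probe set of TJP1 and the probe set of CLDN3, which have that ending too.

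TJP1 encodes ZO-1, the scaffold under the claudins, and its levels were close in all groups. The main probe set read 10.81, 10.81 and 10.86 in control, 10.71, 10.73 and 10.91 after heat shock, 10.97, 11.03 and 10.93 after wounding, and 10.73, 10.92 and 10.84 after both. On this probe set wounded arrays were the highest, above all others, by 0.15 ± 0.07 against control (95% interval -0.004 to 0.31, limma adjusted p = 0.398). With both treatments the difference from control was 0.00 ± 0.07, with a 95% interval from -0.16 to 0.16. Heat shock against wounding gave -0.20 ± 0.07, which did not pass (limma adjusted p = 0.122), except without heat shocked replicate 3 (0.0435) or with a variance trend (0.0247). On the other probe set of TJP1 (r = 0.583 with the main one) wounded arrays did not stand apart. There heat shocked replicate 3, at 8.09, exceeded every wounded array, and wounded and control arrays overlapped.

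CLDN3, CLDN7 and CGN gave low signals with no call. CLDN3, whose gene is next to CLDN4 on chromosome 7 with 0 coding genes between them, had group means from 5.03 to 5.11 and differences of at most 0.08 in size. After both treatments it differed from control by 0.06 ± 0.10 (95% interval -0.15 to 0.28). CLDN7, which also binds the adhesion molecule EpCAM, ranged from 4.26 to 4.96 over the 12 arrays and differed by -0.20 ± 0.14 after both treatments (limma adjusted p = 0.364). CGN, the cingulin gene, ranged from 4.37 to 4.75 and differed by 0.12 ± 0.09 (limma adjusted p = 0.404), and its 3 probe sets passed in no comparison. The group means of CLDN7 and CGN lay around the guide level of 4.60, where RMA compresses differences, so a change in these genes may have gone unseen. CLDN3 and CLDN7 each had 1 probe set with a single symbol.

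Over the 8 members, CLDN1, CLDN2 and CLDN4 held every call on a main probe set. On main probe sets, the arrays of heat shock and control were fully apart for 1 member of 8, CLDN1, while 31.3% of all genes showed such separation. After wounding this held for 3 members, CLDN1, CLDN4 and TJP1, against 21.9% of all genes. After both treatments it held for 3, CLDN1, CLDN2 and CLDN4, against 37.4% of all genes. Heat shocked and wounded arrays were apart from wounded ones for 3 members (32.1% of all genes) and from heat shocked ones for 3 (19.9%). For 4 members, CLDN1, CLDN4, OCLN and TJP1, heat shocked monolayers were apart from wounded ones (28.3%). Of the 18 probe sets, 5 passed after heat shock (8.98% of all probe sets), 2 after wounding (2.33%) and 7 after both (18.2%). For both treatments against wounding 3 passed (11.2%), for both against heat shock 7 (2.87%) and for heat shock against wounding 5 (7.84%). In that order of comparisons the probe sets came from 2, 1, 3, 1, 2 and 2 of the 8 members. The 7 for both against heat shock were the 4 of CLDN1 and the 3 of CLDN4. Probe sets of 1 gene share every array, so they do not count as separate genes beside those shares.

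**Figure D4:**
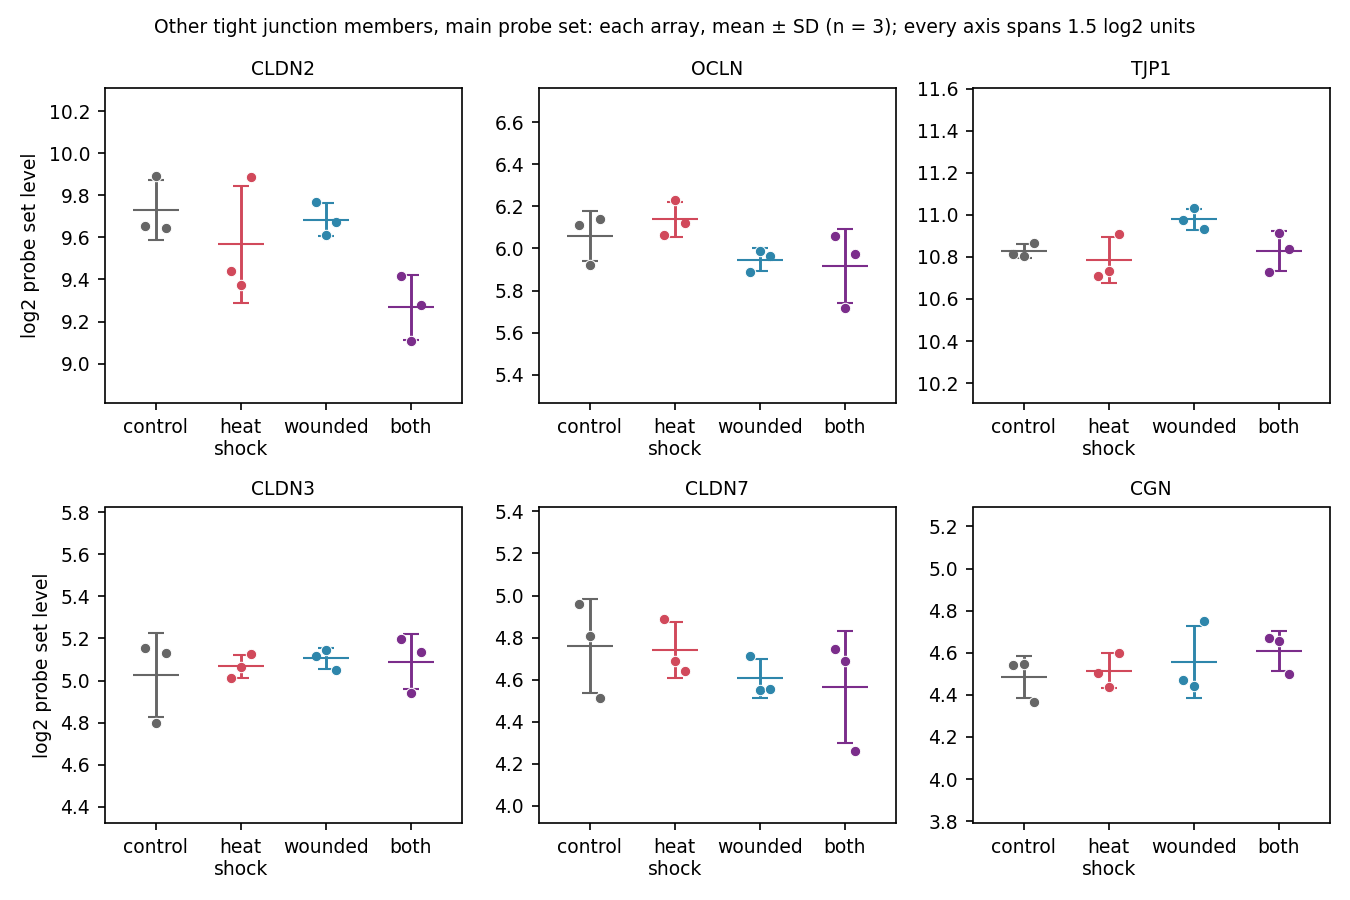
Log2 level of CLDN2, OCLN, TJP1, CLDN3, CLDN7 and CGN on the main probe set in the 4 groups, with each vertical axis spanning 1.5 log2 units. Points are arrays and bars are the mean ± SD of 3; CLDN2 with both treatments, at 9.27, is the 1 group here that passed against control.

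Among 17 other claudin genes measured, 2 rose after heat shock, 1 rose after wounding, and 3 rose and 1 fell after both. CLDN12, a claudin found in many epithelia, rose in all 3, by 0.72 ± 0.09 after heat shock (limma adjusted p = 0.000343), 0.42 ± 0.09 after wounding (0.0286) and 0.60 ± 0.09 after both (0.000528). CLDN15, a cation channel claudin, rose by 0.41 ± 0.08 after heat shock and by 0.35 ± 0.08 after both. CLDN14 rose by 0.44 ± 0.14 after both from a dim control mean of 2.98, and 2 instead of 3 rose without heat shocked and wounded replicate 2. CLDN23 fell by 0.55 ± 0.10 after both. The shares called were 11.8%, 5.88% and 23.5%, beside 12.9%, 3.57% and 23.1% of all genes, so this list stood near the background.

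Other tight junction proteins of the membrane gave 1 rise and 1 fall among 10 after both treatments, or 20% called beside 23.1% of all genes. CXADR, the coxsackievirus and adenovirus receptor of the junction, fell by 0.61 ± 0.08 (10.91 in control and 10.30 after both; limma adjusted p = 0.000167), and also against wounding and heat shock alone, by 0.32 and 0.39. ESAM rose by 0.49 ± 0.11. MARVELD2, which encodes tricellulin, did not pass against control after heat shock (0.23 ± 0.08; limma adjusted p = 0.0945). For heat shock, wounding and both treatments in turn, the list medians were -0.07, -0.04 and -0.07, and those over all genes were -0.03, -0.03 and -0.01.

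Of 21 plaque and polarity genes, 1 rose and 1 fell after heat shock, 1 fell after wounding, and 1 rose and 4 fell after both. The shares called, 9.52%, 4.76% and 23.8%, stood near those of all genes, 12.9%, 3.57% and 23.1%. MAGI3, a scaffold gene, rose by 0.50 ± 0.10 after heat shock and 0.47 ± 0.10 after both, and PARD6B, of the apical polarity complex, fell by 0.40 ± 0.09 after wounding and 0.43 ± 0.09 after both. PALS1, a scaffold of the Crumbs complex, fell by 0.41 ± 0.11 after both and AMOTL1 by 0.26 ± 0.08. Without heat shocked and wounded replicate 2, 3 instead of 4 fell. Of 13 genes of junction signalling and actomyosin, 2 fell after both, the myosin light chain kinase gene MYLK by 0.44 ± 0.11 and ROCK2 by 0.23 ± 0.06, and neither passed without that replicate. That is 15.4% called, below the 23.1% of all genes.

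**Figure D5:**
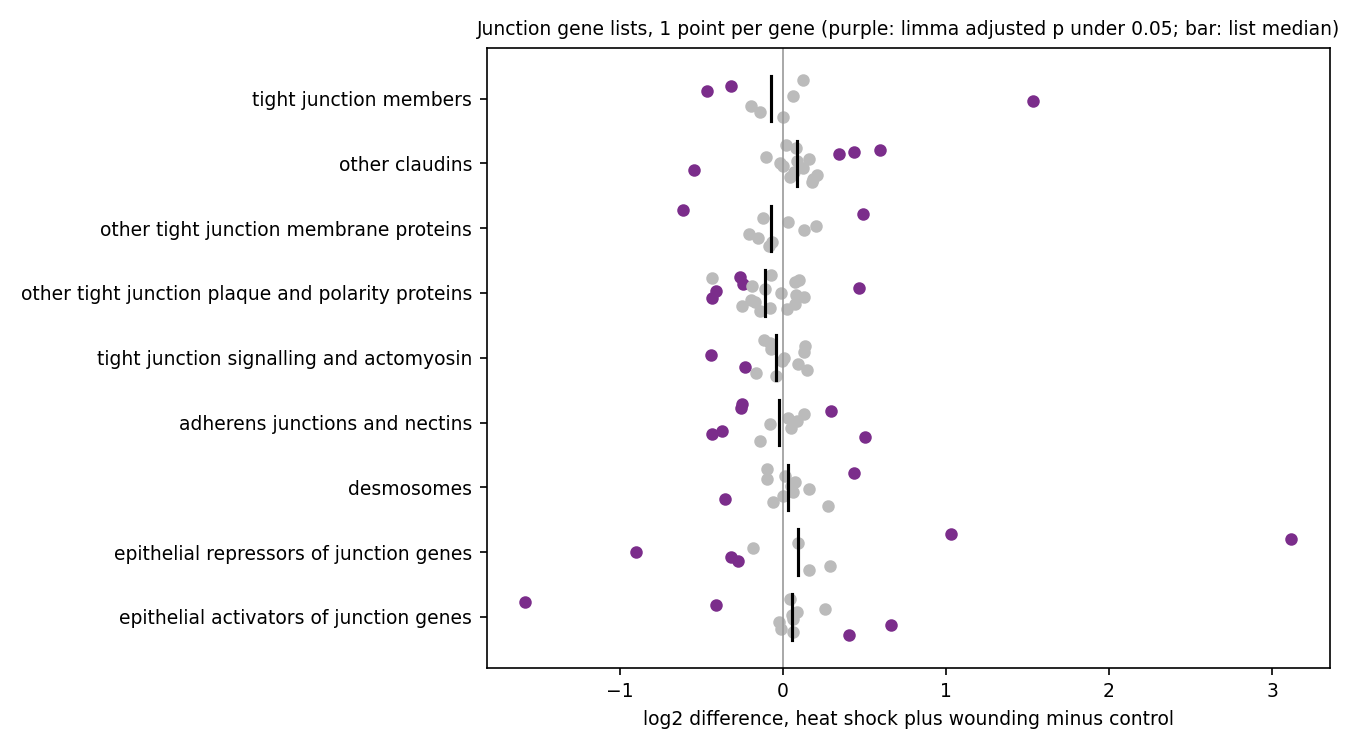
Log2 difference after both treatments against control (horizontal axis) for each gene of the junction lists and of the lists of their regulators. Purple points passed at a limma adjusted p under 0.05 and black bars are list medians, which lie between -0.11 and 0.10. The point farthest to the right is SNAI2 at 3.12, from a dim control mean of 3.19.

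Other cell junctions were set beside these. Of 12 adherens junction and nectin genes, 2 rose and 4 fell after both treatments (50% called, beside 23.1% of all genes), and 3 fell without heat shocked and wounded replicate 2. NECTIN3 fell by 0.43 ± 0.07 and NECTIN2 by 0.37 ± 0.09, while the N-cadherin gene CDH2 rose by 0.30 ± 0.07. NECTIN4 rose by 0.51 ± 0.12 from a dim control mean of 4.31. Of 12 desmosome genes, DSC2 rose by 0.44 ± 0.14 and PKP2 fell by 0.35 ± 0.10 (16.7% called, below the 23.1% of all genes). DSC2, a desmosomal cadherin gene, moved oppositely after the single treatments, by -0.51 ± 0.14 after heat shock (limma adjusted p = 0.0306) and by 0.56 ± 0.14 after wounding (0.0478). Each of these has the sign opposite to that of CLDN1. PKP2 had the sign of CLDN1 after wounding, with a fall of 0.60 ± 0.10 (limma adjusted p = 0.00576), and was not called after heat shock. Without heat shocked and wounded replicate 2, DSC2 was not called after wounding or after both.

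Transcription factors known to repress or activate epithelial junction genes were read on the same arrays. SNAI2 (Slug) had group means of 3.19 in control, 4.05 after heat shock, 5.20 after wounding and 6.31 with both treatments, the same order as CLDN4, and SNAI1 (Snail) read 5.64, 5.97, 5.61 and 6.67. Of the 9 repressor genes measured, 2 rose and 3 fell after both (55.6% called, beside 23.1% of all genes) and 4 were not called, and TCF4 fell by 0.90 ± 0.15. Without heat shocked and wounded replicate 2, 1 instead of 3 fell. Of 12 activators measured, 2 rose, 2 fell and 8 were not called after both (33.3% called). The ETS factor gene EHF fell by 1.58 ± 0.17 and ELF3 by 0.41 ± 0.09, while KLF4 rose by 0.67 ± 0.10. OVOL2 rose by 0.41 ± 0.09 from a dim control mean of 4.48. ELF3 read 10.19 in control, 10.40 after heat shock, 9.94 after wounding and 9.78 with both treatments, the order of the CLDN1 main probe set.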

How the data were processed

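The labels' protocols state that 100 ng of total RNA from each of 12 A549 samples was labelled for PrimeView arrays. The authors deposited log2 levels per probe set, and the submitters' processing notes name RMA and Affymetrix Expression Console (the software version is not given in the sources used here). That the scale is log2 follows from the range of the values. Of 49293 probe sets, 1 with a missing value was left out, 44987 had 1 gene symbol in the platform annotation, 1832 had several and 2473 were not listed. Some genes are not reported here. Groups came from the labels.

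All 12 arrays and 18132 genes entered a linear model with a term for each group, fitted by lmFit and eBayes of limma 3.58.1, run in R 4.3.3, with 8 residual degrees of freedom. Within each comparison, p-values were adjusted over all genes (Benjamini-Hochberg), and genes under 0.05 were called. A ± gives the SD of a level or the SE of a difference. A second fit took all 44987 probe sets. The number of arrays limits the precision. Promoter windows were searched in RefSeq sequences (GRCh38.p14). Named genes were all members, up to 4 called genes of each list by size of change (where none passed, up to 2 with the smallest p), treatment checks, and the 3 genes of highest Pearson correlation with each called member; the text gives part of these. The members and lists were chosen with earlier results of these data known. Alternatives were other scalings, a filter on dim genes, the choice of probe sets, blocks, fits to the groups compared, another variance model and leaving out each array.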

Additional observations from a re-analysis of the deposited data

How the results depend on the processing

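Over 22 alternatives (21 for the interaction) no called member difference turned its direction, and the limits were as follows. The count of members called after heat shock against control (1) was 2 with the mean of all probe sets and 0 in a fit to the groups compared. After wounding (0) it was 1 with the filter on dim genes, the mean of all probe sets or the groups compared alone, and 2 with the variance trend. For both treatments against wounding (2) it was 1 after quantile normalization again, after cyclic loess, with all probe sets tested and with the groups compared alone, and 0 with the block on the description number. For heat shock against wounding (1) it was 2 with the mean of all probe sets and with the variance trend. Leaving out 1 array gave 0 to 1 members after heat shock, 0 to 1 after wounding, 2 to 3 after both, 0 to 2 for both against wounding, 1 to 2 for both against heat shock, 1 to 2 for heat shock against wounding and 0 to 0 for the interaction. The replicate numbers of the titles were not taken as pairs. The 4 arrays of a number share a mark in the description (S2a, S2b or S3a) whose meaning the labels do not give, and the check was mixed: 12 of 18 same-numbered pairs had deviations correlated above 0.1, from -0.135 to 0.416, and 9 of 12 arrays correlated best with their own number, a hint from the data and not from the design. With the replicate block 0 members instead of 2 passed for both treatments against wounding (CLDN4 adjusted p = 0.0666, CLDN2 0.0636, both from limma), and the other counts kept within 1.5 times. The fits of single probe sets under other scalings, blocks and left-out arrays, and the list counts without 1 array, were chosen after seeing the data. Dim signals near 4.60 limit what can be said of CLDN7, CGN and the control level of CLDN4.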
